A study of Mus musculus with 8 samples.

Results

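The aryl hydrocarbon receptor (AHR) genes were followed in mouse embryonic fibroblasts that lack Cbx2. The group holds 8 of the 17441 genes in the authors' deposited table. They were found there by symbol and all 8 are listed: the receptor Ahr, its partners Arnt and Arnt2, its repressor Ahrr, and the target genes Tiparp, Cyp1a1, Cyp1b1 and Aldh3a1. The members were chosen by their role in the pathway with their deposited fold changes and adjusted p-values already known, so these values and calls are given as a description.

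RNA came from 2 libraries of Cbx2-/- fibroblasts, which carry a targeted deletion of Cbx2, and 2 libraries of wild-type fibroblasts from litter mates. CBX2 reads a histone mark for polycomb repressive complex 1, which holds many developmental regulators silent. All cells were primary fibroblasts from embryonic day 18, grown to passage 2, and the labels' protocols give a depth of about 4.62 Gb for each library. ATAC-seq libraries of the same genotypes are not analysed here. The labels name no receptor ligand added to the medium, and do not tell if a genotype's libraries stem from different embryos, so the p-values measure only the spread between these libraries.

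AHR is a ligand-activated transcription factor of the bHLH-PAS family. It waits in the cytoplasm in a complex with the chaperone HSP90 and its co-chaperone p23, and is activated by dioxins, polycyclic aromatic hydrocarbons and tryptophan metabolites. In the nucleus it pairs with ARNT and binds the core letters GCGTG of the xenobiotic response element, next to genes for drug-metabolising enzymes. AHRR competes with it for ARNT and TIPARP marks it with ADP-ribose, so that both limit the response. CYP1B1 is the main CYP1 enzyme of mouse embryo fibroblasts, whereas CYP1A1 is best known for its strong induction by ligands.

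In the authors' deposited table, Cbx2 itself had a normalised value of 29.0 in knockout cells, against 347 in wild-type cells (log2 fold change -3.58, authors' DESeq2 adjusted p = 2.55e-44). The table gives 1 normalised read value per genotype, with sums of 18910077 in knockout and 19428299 in wild type, so no SD can be given for it. A gene was called where the authors' DESeq2 adjusted p was under 0.05, and 3.48% of all listed genes were called higher and 4.30% lower. Fibroblast markers were abundant in both genotypes, with 1 of 12 called higher and 9 called lower and summed values of 657319 in knockout and 758186 in wild type in the authors' deposited table. Of 13 macrophage markers 7 were called higher and none lower, and their summed value in the authors' deposited table was 1849 in knockout and 653 in wild type. Lyz2 alone stood at 947 in knockout and 148 in wild type. Not called were, among others, Csf1r (257 in knockout, 245 in wild type) and C1qb (3.10 in knockout, 4.60 in wild type). Of 9 endothelial markers 2 were called higher (Esam and Cdh5) and none lower, with sums of 1557 in knockout and 1062 in wild type there. The endothelial marker Pecam1 was at 1.98 in knockout and 2.02 in wild type. Of 9 epithelial and keratinocyte markers none was called higher and 2 lower, with sums of 273 in knockout and 560 in wild type. Called lower were Krt8 (7.48 in knockout, 98.0 in wild type) and Krt18 (75.6 in knockout, 260 in wild type). The keratinocyte genes Krt5, Krt14 and Trp63 were at 2.22, 2.02 and 1.29 in knockout and at 1.76, 2.06 and 1.23 in wild type. The 4 hepatocyte markers listed summed to 4.91 in knockout and 3.99 in wild type. The part of these other cell types in the AHR results was not tested, and in bulk RNA fewer cells of a type and less RNA per cell cannot be told apart.

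Of the 8 AHR genes, 4 were called higher in knockout and none lower, beside 3.48% of all listed genes called higher and 4.30% called lower. The called genes were the target enzymes Cyp1a1, Cyp1b1 and Aldh3a1 and the partner gene Arnt2. The receptor Ahr, its main partner Arnt and the feedback genes Ahrr and Tiparp were not called. The median log2 fold change of the 8 genes was 0.29, against 0.0036 over all listed genes in the authors' deposited table. Ahr and Tiparp had an unadjusted DESeq2 p under 0.05 (0.041 and 0.046) but were not called, Tiparp with a negative sign. The share of all listed genes under that looser limit is not given here.

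**Figure D1:**
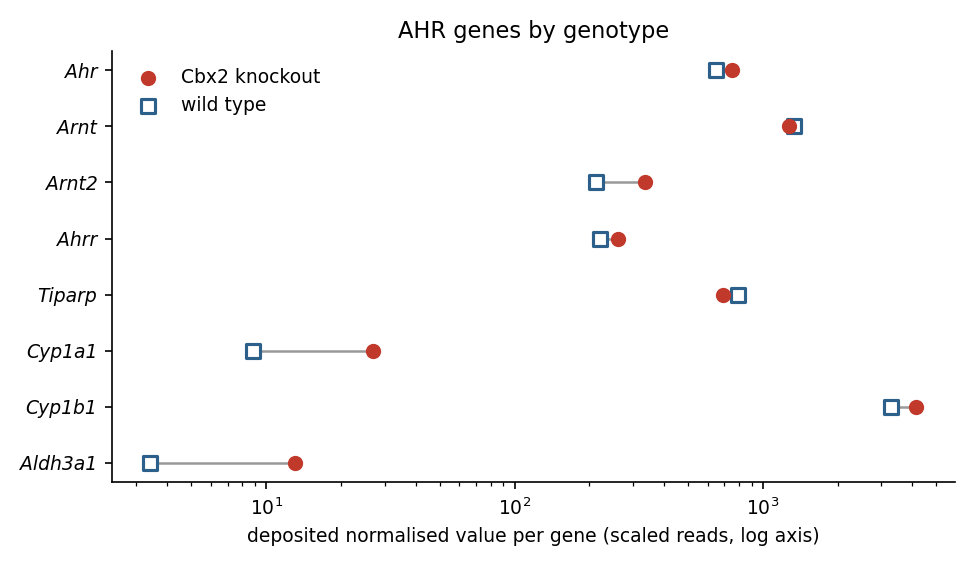
Deposited normalised value of each AHR gene (x axis, scaled reads, log axis) in Cbx2 knockout (red circles) and wild-type cells (open blue squares), with 1 value per genotype and no error. The values span from 3.41 for Aldh3a1 in wild type to 4152 for Cyp1b1 in knockout, and the genotypes lie farthest apart for Aldh3a1 and Cyp1a1.

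Ahr (gene 11622, chromosome 12 from 35497979 to 35534989 in GRCm38, the mm10 build) encodes the receptor. Its normalised value was 751 in knockout and 645 in wild type in the authors' deposited table. The deposited log2 fold change was 0.22. The standard error implied by its p (implied SE) was 0.11, with a 95% interval from 0.0090 to 0.43, and the authors' DESeq2 adjusted p over all genes was 0.297.

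Of the partner genes Arnt2 was called and Arnt was not, and the difference between their changes was not tested. Arnt (gene 11863, chromosome 3 from 95434367 to 95497240) encodes the broadly expressed partner that AHR shares with the hypoxia factors. It had a value of 1272 in knockout and 1340 in wild type in the authors' deposited table, a log2 fold change of -0.07 with an implied SE of 0.080 and an authors' DESeq2 adjusted p of 0.92. Arnt2 (gene 11864, chromosome 7 from 84246274 to 84411741) encodes a related partner best known from neurons and the hypothalamus. It rose to 335 in knockout, against 212 in wild type in the authors' deposited table. This was a 1.58-fold difference, with a log2 fold change of 0.66, an implied SE of 0.16 and an authors' DESeq2 adjusted p of 0.00109. Divided by gene length, Arnt2 stood at 0.189 of the level of Arnt in knockout and 0.114 in wild type. The sum of both partners per kilobase was 347 in knockout and 342 in wild type, so the gene that rose was the less abundant partner and the sum moved little.

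The genes of the feedback arm were not called. Ahrr (gene 11624, chromosome 13 from 74211118 to 74292331) encodes the repressor and is itself a target of AHR. Its value was 262 in knockout and 220 in wild type in the authors' deposited table, with a log2 fold change of 0.25, an implied SE of 0.17 and an authors' DESeq2 adjusted p of 0.65. Tiparp (gene 99929, chromosome 3 from 65528447 to 65555518) encodes the mono-ADP-ribosyltransferase that promotes breakdown of AHR, and it too is a target gene. It stood at 691 in knockout and 797 in wild type in the authors' deposited table, with a log2 fold change of -0.20, an implied SE of 0.10 and an authors' DESeq2 adjusted p of 0.323. The 95% interval ran from -0.40 to -0.0036 for Tiparp and from -0.09 to 0.59 for Ahrr. Among the target genes Tiparp alone had a negative fold change, and it did not pass the threshold. Per kilobase, Ahrr was at 0.404 of the level of Ahr in knockout and at 0.395 in wild type.

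**Figure D2:**
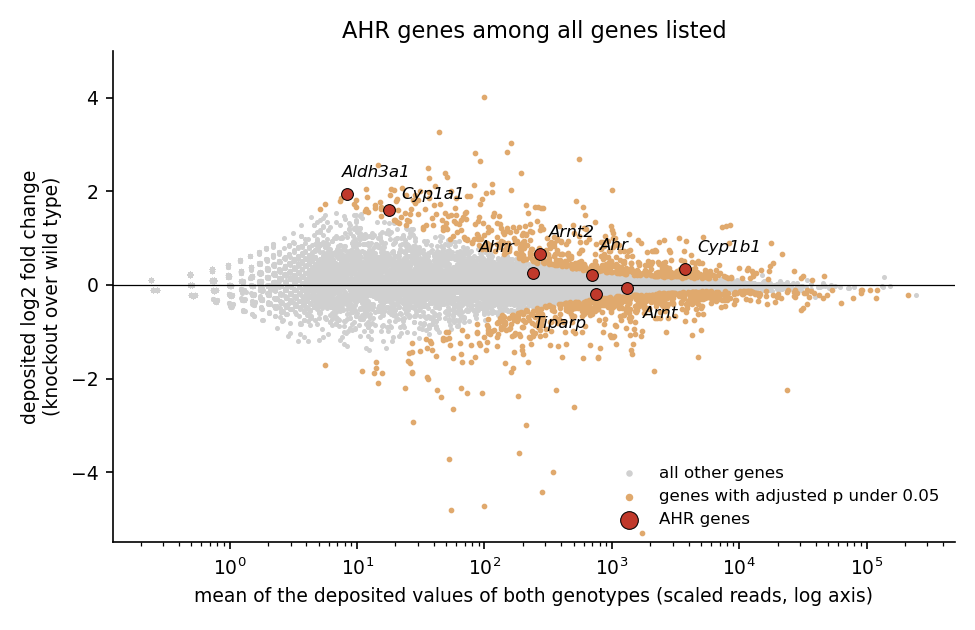
Deposited log2 fold change (y axis, knockout over wild type) against the mean of both genotype values (x axis, scaled reads, log axis) for all 17441 genes, with genes at an adjusted p under 0.05 in orange, the others in grey and the 8 AHR genes in red. Aldh3a1 and Cyp1a1 lie at the upper edge of the cloud among genes with few reads, Cyp1b1 and Arnt2 just above the grey band, and Ahr, Arnt, Ahrr and Tiparp within it.

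The start regions of the target genes are shown because GCGTG is the letter core through which AHR and ARNT bind. The RefSeq promoter table (GRCm38.p6) matched 6 of the 8 genes, and not Ahr and Aldh3a1. It gives 1 transcript start for each of them. For Cyp1b1, Tiparp and Ahrr that start is the outer end of the gene, whereas it lies inside the gene span given here by 9685 bases for Cyp1a1, 1703 bases for Arnt2 and 23 bases for Arnt. The region before the outermost start of those 3 genes was not searched. In the 250 bases before the listed transcript start, the core was searched on both strands, as GCGTG or CACGC (a forward and a reverse copy can share 2 letters, and none did here). It was present in 5 of the 6 windows, all but that of Arnt2, and in 28.2% of all 32851 windows of the same length. Each sequence runs 5′ to 3′ in the direction of its gene, with the core in capitals.
Cyp1a1, chr9:57697363-57697612, plus strand: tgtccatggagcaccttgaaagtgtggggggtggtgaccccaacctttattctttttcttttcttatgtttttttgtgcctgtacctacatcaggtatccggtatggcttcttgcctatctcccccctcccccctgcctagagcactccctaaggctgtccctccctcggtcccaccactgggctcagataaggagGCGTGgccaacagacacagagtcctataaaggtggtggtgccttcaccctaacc
Cyp1b1, chr17:79715062-79715311, minus strand: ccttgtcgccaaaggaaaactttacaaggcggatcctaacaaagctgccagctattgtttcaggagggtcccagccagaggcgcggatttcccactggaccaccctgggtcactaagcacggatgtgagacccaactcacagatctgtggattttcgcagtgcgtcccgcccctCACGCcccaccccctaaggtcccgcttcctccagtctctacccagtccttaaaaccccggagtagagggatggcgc
Tiparp, chr3:65528197-65528446, plus strand: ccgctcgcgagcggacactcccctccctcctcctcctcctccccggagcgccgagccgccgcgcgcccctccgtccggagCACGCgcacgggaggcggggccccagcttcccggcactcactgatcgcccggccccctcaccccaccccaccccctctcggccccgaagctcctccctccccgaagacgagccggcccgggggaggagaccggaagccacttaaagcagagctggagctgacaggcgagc
Ahrr, chr13:74292332-74292581, minus strand: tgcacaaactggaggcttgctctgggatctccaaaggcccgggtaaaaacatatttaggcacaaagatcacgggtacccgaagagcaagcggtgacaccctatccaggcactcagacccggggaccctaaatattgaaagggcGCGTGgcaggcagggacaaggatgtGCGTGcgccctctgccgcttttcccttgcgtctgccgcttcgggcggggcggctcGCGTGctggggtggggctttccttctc
The core began 54 bases before the listed transcript start of Cyp1a1, 76 bases before that of Cyp1b1, 170 bases before that of Tiparp and 29 bases before that of Arnt. Ahrr held 3 copies, at 107, 82 and 27 bases, and 3 or more were found in 2.77% of all windows. A core was thus present before a listed start of target genes that were called and of target genes that were not. A match describes the letters of this window and not a bound site.

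Cyp1b1 (gene 13078, chromosome 17 from 79706940 to 79715061) encodes a monooxygenase that acts on polycyclic hydrocarbons, oestradiol and retinoids. It was the most abundant of the 8 AHR genes and was called higher, with a value of 4152 in knockout and 3286 in wild type in the authors' deposited table. The difference was 1.26-fold, with a log2 fold change of 0.34, an implied SE of 0.054 and an authors' DESeq2 adjusted p of 3.14e-08. Its level per kilobase was above that of 89.8% of listed genes in knockout and 86.7% in wild type. By fold change it stood in 456th place among the 607 called rises of that table, so the rise was a small one of an abundant transcript.

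Cyp1a1 (gene 13076, chromosome 9 from 57687928 to 57703824) encodes the monooxygenase most used as a read-out of AHR activity. Whole reads per library could be recovered for it from the mean of the deposited values, because a unique combination of whole reads gave it. The knockout libraries held 29 and 32 reads of Cyp1a1, against 6 and 6 reads in the wild-type libraries. Both knockout libraries were well above both wild-type libraries and the libraries of a genotype lay close together. By summed reads, scaled for library size, the ratio was 4.78, with an exact 95% interval of 2.55 to 9.76 that covers counting error only. Values for Cyp1a1 in the authors' deposited table were 26.9 in knockout and 8.83 in wild type, which are pulled toward each other. Its deposited log2 fold change was 1.61 with an implied SE of 0.49 and an authors' DESeq2 adjusted p of 0.0153. It stood in 71st place by fold change among the called rises of the authors' deposited table.

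Aldh3a1 (gene 11670, chromosome 11 from 61208510 to 61218418) encodes an aldehyde dehydrogenase abundant in cornea and a classical member of the AHR gene battery. It was the scarcest of the 8 genes. Its reads numbered 12 and 21 in the knockout libraries, against 0 and 1 in the wild-type libraries. The transcript was thus nearly undetected in wild type and present in both knockout libraries, which differed from each other more than for Cyp1a1. The ratio of summed and scaled reads was 31.0, with an exact 95% interval of 5.20 to 1263, so its size is poorly known on the upper side. With a pseudocount of 0.5 the log2 ratio of its reads was 4.17, and it was 3.34 without the wild-type library that held 0 reads, 4.99 without the one that held 1, and 3.51 with a pseudocount of 1. Aldh3a1 values in the authors' deposited table were 13.1 in knockout and 3.41 in wild type, a log2 fold change of 1.94 with an implied SE of 0.54 and an authors' DESeq2 adjusted p of 0.00655. By fold change it stood in 28th place among the called rises. Both knockout libraries exceeded both wild-type libraries in 34.1% of the 2458 genes with a mean of 5 to 50, so the lack of overlap alone is common. With 20% added to the implied SE, Cyp1a1 and Aldh3a1 were no longer called, whereas Cyp1b1 and Arnt2 were. By limma on the recovered reads, Cyp1a1 and Aldh3a1 were both called higher (adjusted p = 5.94e-04 and 0.00895), beside 8.42% of the 2458 genes tested. That test used the same reads as the deposited one, so it is no separate support. Aldh3a1 reached the required mean of 5 through its knockout reads, with scaled means of 16.0 in knockout and 0.535 in wild type. The reads behind both genes are few, 73 for Cyp1a1 and 34 for Aldh3a1 over all 4 libraries.

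**Figure D3:**
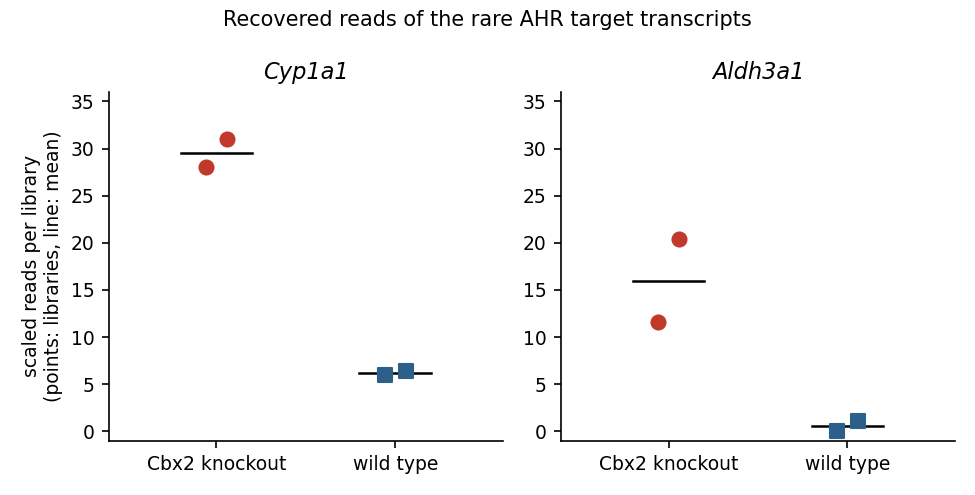
Recovered reads of Cyp1a1 (left) and Aldh3a1 (right), scaled for library size, in the 2 libraries of each genotype (y axis, scaled reads per library), with Cbx2 knockout left and wild type right in each panel. Points are libraries and lines are means, at 29.5 in knockout and 6.19 in wild type for Cyp1a1 and at 16.0 in knockout and 0.535 in wild type for Aldh3a1, and the genotypes do not overlap.

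By level per kilobase of gene, the order in knockout was Cyp1b1 (810), Arnt (292), Tiparp (166), Ahr (137), Ahrr (55.1), Arnt2 (55.1), Cyp1a1 (10.2) and Aldh3a1 (7.96). The same order held in wild type, with Cyp1b1 at 641, Arnt at 307, Tiparp at 192, Ahr at 117, Ahrr at 46.4, Arnt2 at 34.9, Cyp1a1 at 3.35 and Aldh3a1 at 2.07. Arnt2 and Ahrr were level in knockout, and the spread of these levels between libraries is not given. The deposited values of Cyp1a1 and Aldh3a1 are shrunken toward the other genotype. In wild type their recovered scaled means were 6.19 and 0.535, against deposited values of 8.83 and 3.41. In knockout they were 29.5 and 16.0, against 26.9 and 13.1. Levels of these genes per kilobase, and the ratios that follow, hold for the shrunken values only. Cyp1b1 exceeded Cyp1a1 by 79.4 times in knockout and 191 times in wild type on the same per-kilobase scale of deposited values. The CYP1 enzyme that dominates in these cells was thus the same in both genotypes.

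**Figure D4:**
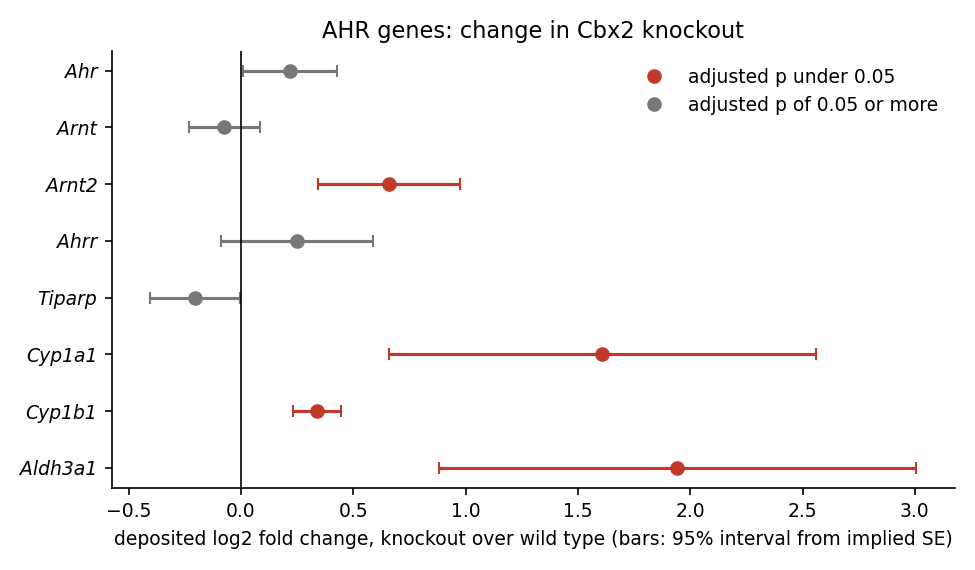
Deposited log2 fold change of each AHR gene (x axis, knockout over wild type) with bars for the 95% interval from the implied SE, in red for an adjusted p under 0.05 and grey otherwise. Cyp1a1 (1.61) and Aldh3a1 (1.94) have the largest fold changes and the widest bars, and Cyp1b1 (0.34) the narrowest.

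The wider AHR pathway was described with lists that hold 68 further genes, 63 of them in the table. Of these, 6 were called higher and 6 lower, with a median log2 fold change of -0.02, against 3.48% called higher, 4.30% called lower and a median of 0.0036 over all listed genes. Of the 5 genes of the receptor complex, none was called in the authors' deposited table (none at an unadjusted DESeq2 p under 0.05). Hsp90ab1, the constitutive HSP90 chaperone, stood at 44671 in knockout and 45190 in wild type in that table, with a log2 fold change of -0.02.

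Target genes of AHR known from other tissues or cells were mostly not called, and those called were mostly higher. Of 19 further target genes listed, 5 were called higher and 1 lower, beside 3.48% of all listed genes called higher and 4.30% called lower, with a median log2 fold change of -0.01 in the authors' deposited table. Nqo1, the quinone reductase shared between AHR and NRF2, stood at 2264 in knockout and 1592 in wild type in the authors' deposited table, with a log2 fold change of 0.51, an implied SE of 0.070 and an authors' DESeq2 adjusted p of 2.33e-11. Serpinb2, a plasminogen activator inhibitor, rose to 1082 in knockout, against 716 in wild type in the authors' deposited table, with a log2 fold change of 0.60 and an authors' DESeq2 adjusted p of 1.34e-08. Nfe2l2, which encodes NRF2, rose by a log2 fold change of 0.27 in the authors' deposited table. The others, named after their values were seen, were the amino acid transporter Slc7a5 (0.20) and the glutathione transferase Gsta1 (1.18), per the authors' deposited table. Gsta1 held 78 and 62 reads in the knockout libraries and 26 and 26 in the wild-type libraries. It has close relatives, and the submitters' processing notes name RSEM but not the settings by which reads were divided among them. The Gsta1 call was lost at an adjusted p under 0.01 and with 20% added to the implied SE. Il6, the cytokine interleukin 6, was the target gene called lower, at 76.5 in knockout and 152 in wild type in the authors' deposited table (log2 fold change -0.99, authors' DESeq2 adjusted p = 9.80e-04). The phase II genes Ugt1a6a and Ugt1a6b, which are classical AHR targets too, were not called, with -0.0041 and -0.29 as log2 fold change in the authors' deposited table. Cyp1a2, the neighbour and close relative of Cyp1a1, was on this list but was not found by symbol in the authors' deposited table.

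The other bHLH-PAS factors, several of which also pair with ARNT, held 12 listed genes, of which none was called higher and 4 were called lower, beside 4.30% of all listed genes called lower, with a median log2 fold change of -0.23 in the authors' deposited table. Hif1a, the hypoxia factor, had a value of 6099 in knockout and 7218 in wild type in the authors' deposited table (log2 fold change -0.24, authors' DESeq2 adjusted p = 1.97e-06). Arntl2, a partner in the circadian clock, fell to 56.2 in knockout, against 148 in wild type in the authors' deposited table, with a log2 fold change of -1.40, an implied SE of 0.26 and an authors' DESeq2 adjusted p of 2.35e-06. Sim1 and Sim2 encode factors of the developing nervous system that pair with ARNT and ARNT2. Sim1 held 7 and 1 reads in the knockout libraries, against 28 and 19 in the wild-type libraries, and had an authors' DESeq2 adjusted p of 0.0234. Sim2 stood at 34.4 in knockout and 69.2 in wild type in the authors' deposited table (log2 fold change -1.01, authors' DESeq2 adjusted p = 0.0422). The Sim1 and Sim2 calls were lost with 20% added to the implied SE. Epas1, the other main hypoxia factor, was not called, with a log2 fold change of 0.28 in the authors' deposited table.

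**Figure D5:**
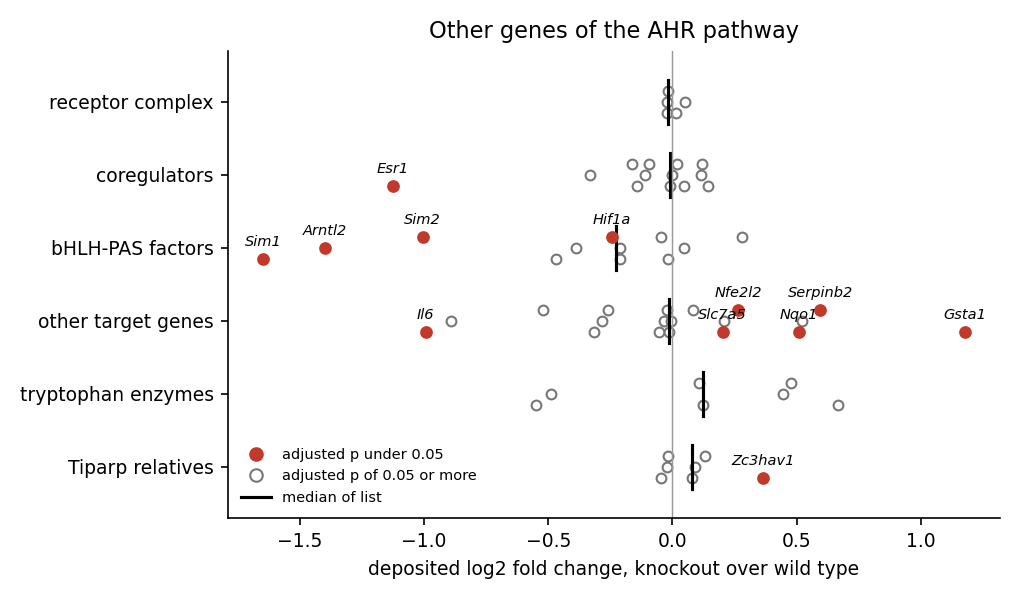
Deposited log2 fold change (x axis, knockout over wild type) of the 63 further pathway genes by list (y axis), each point a gene, filled red at an adjusted p under 0.05, with a black line at the median of the list. The receptor complex is tightly grouped at 0, called target genes lie mostly to the right, and called bHLH-PAS factors all lie to the left.

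The median log2 fold change of 13 coregulators was -0.01 in the authors' deposited table. Of them 1 was called lower and none higher, beside 4.30% of all listed genes called lower and 3.48% called higher. It was Esr1, the oestrogen receptor alpha, which interacts with AHR, with 32 and 25 reads in the knockout libraries, against 64 and 66 in the wild-type libraries. Its deposited log2 fold change was -1.13 and its authors' DESeq2 adjusted p 0.0212, and the call was lost with 20% added to the implied SE. The coactivator Ncoa1 was not called, at a log2 fold change of -0.33 in the authors' deposited table. Among 7 enzymes and binders of mono-ADP-ribose related to Tiparp, 1 was called higher and none lower, beside the same shares of all listed genes. It was Zc3hav1, an antiviral zinc finger protein, with a value of 899 in knockout and 698 in wild type and a log2 fold change of 0.36 in the authors' deposited table (authors' DESeq2 adjusted p = 0.00485). Of 7 listed enzymes that make AHR ligands from tryptophan or use up their precursors none was called, and none had an unadjusted DESeq2 p under 0.05. Most of these were scarce: Ido1, which opens the tryptophan ring, held 5 and 5 reads in the knockout libraries and 2 and 2 in the wild-type libraries.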

How the data were processed

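RNA-seq was analysed for 2 Cbx2 knockout and 2 wild-type libraries, grouped by their labels. The submitters' processing notes name mm10, RSEM, DESeq2, HISAT2 and Bowtie2. Which version or setting was used is not given in these sources. Deposited by the authors were 1 normalised read signal per genotype, a log2 fold change (knockout over wild type) equal to the log2 ratio of both columns, and p-values with Benjamini-Hochberg adjustment over all 17441 genes. The table gives values per genotype, so the authors' test stands as the main test, and reads per library were used only where they could be recovered. Fold changes of genes with few reads are shrunken toward 0.

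An implied standard error (SE) is the deposited log2 fold change divided by the normal score of its p. For the 6126 genes with a mean under 50, a unique combination of whole reads over the 4 libraries gave the mean of both columns to within 6e-09. The libraries of a genotype carry no replicate numbers there. Over genes with 10 or more reads, the mean chi-square between libraries was 1.24 in knockout and 1.28 in wild type, above sampling noise. The limma test took each library separately. The ratios given for Cyp1a1 and Aldh3a1 used reads summed over the libraries of a genotype. Their intervals cover counting error only and leave out this added spread. Size factors were 1.03 and 1.03 in knockout and 1.01 and 0.935 in wild type. These reads were also tested with limma 3.58.1 (R 4.3.3, pseudocount 0.5, genes with a mean of 5 or more). Read recovery and the limma test were checked on simulated data. The members, lists and rules were chosen with earlier results of these data known. The genes named are the 8 members, Cbx2 and up to 4 called genes of each list by adjusted p, with others given for context and chosen after their values were seen. Genes were placed by identifier in RefSeq annotation of GRCm38.p6.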

Additional observations from a re-analysis of the deposited data

How the results depend on the processing

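The direction of all 8 fold changes held when they were centred on the median of all genes (a shift of 0.0036 on the log2 scale) or when both genotype columns were scaled to the same sum (0.039). Of the 8 AHR genes, 4 were called higher, and 2 when a fold change of 2 was also asked for (Cyp1a1 and Aldh3a1). With adjustment over genes at or above the median value 2 were called higher (Arnt2 and Cyp1b1), Cyp1a1 and Aldh3a1 being left out. With 20% added to the implied SE 2 were called higher (Arnt2 and Cyp1b1). The share of all listed genes called higher was 3.48%, and it was 1.0%, 2.62% and 2.26% under these settings in that order. None was called lower under any of these. At an adjusted p under 0.01 there were 3, beside 2.51% of all listed genes. Of the other pathway genes, 6 were called higher and 6 lower, beside 3.48% and 4.30% of all listed genes. The fold change limit left 1 higher and 4 lower, beside 1.0% and 0.682%. An adjusted p under 0.01 left 5 higher and 3 lower, beside 2.51% and 3.06%. Adjustment over genes from the median value upward left 5 higher and 1 lower, beside 2.62% and 3.99%. Both shares are of all listed genes, including those under the median value that this setting did not test. They are thus lower than the shares among the genes it tested. The added spread left 5 higher and 3 lower, beside 2.26% and 2.88%. The log2 ratio of recovered reads was 2.26 for Cyp1a1 and 4.96 for Aldh3a1, larger than deposited because the deposited values are shrunken. With a pseudocount, the log2 ratio of Cyp1a1 reads was 2.17 and ranged from 2.10 to 2.24 when each library was left out in turn, and that of Aldh3a1 was 4.17 and ranged from 3.34 to 4.99. No paired analysis was possible because the table gives 1 value per genotype and the recovered reads carry no replicate numbers. Depth limits Cyp1a1 and Aldh3a1, and libraries behind the other 6 genes could not be left out.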

Other observations

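The genes next to the AHR genes were also looked at, as was the authors' annotation, both chosen after the data were seen. Of the 16 listed genes that lie within 2 places of the called AHR genes, 2 were called higher and none lower, with a median log2 fold change of 0.02 in the authors' deposited table, beside 3.48% of all listed genes called higher and 4.30% called lower. Both flank Arnt2. Of the 16 next to the AHR genes that were not called, 1 was called higher, Ctss next to Arnt (2.39), and 1 lower, Ssr3 next to Tiparp (-0.18), with log2 fold changes from that table. Cemip, which encodes a hyaluronan-binding protein, stood at 2663 in knockout and 1604 in wild type (log2 fold change 0.73, authors' DESeq2 adjusted p = 1.78e-24 in the authors' deposited table), and Gm2115 had a log2 fold change of 0.22 there. Next to Aldh3a1, the related gene Aldh3a2 stood at 1110 in knockout and 1041 in wild type in the authors' deposited table and was not called. Next to Cyp1a1, Csk and Edc3 were not called, with 0.06 and -0.06 as log2 fold change in the authors' deposited table.

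Among the 18 genes that the authors' deposited table annotates with xenobiotic metabolic process, 3 were called higher and none lower, against the shares over all listed genes given above. Besides Cyp1b1 these were the glutathione transferase genes Gstm2, at 2032 in knockout and 1624 in wild type, and Gsta4, at 589 in knockout and 461 in wild type. Both belong to gene families of similar sequence, and only the tool (RSEM), not its settings, is given for how reads were divided among relatives. Of 75 genes annotated with response to toxic substance, 6 were called higher (3.48% of all listed genes were) and 2 lower (4.30%). Those called higher include the AHR genes Cyp1b1, Arnt2 and Cyp1a1, whose calls are already given above. Slc7a11, the cystine transporter, had the smallest adjusted p of those called higher, at 740 in knockout and 357 in wild type in the authors' deposited table (log2 fold change 1.05, authors' DESeq2 adjusted p = 1.57e-16). Of 20 genes annotated with retinol metabolic process, Cyp1b1 was called higher, and Rbp4 (-1.18) and Dhrs3 (-0.40) were called lower in that table, beside the same shares. Further terms were looked at. Called higher were 1 of 9 for aryl hydrocarbon receptor binding (Arnt2) and 2 of 8 for response to xenobiotic stimulus (Arnt2 and Gclc). For aromatase activity 2 of 10 were called higher (Cyp1b1 and Cyp1a1). None of these terms held a gene called lower. Over all listed genes 3.48% were called higher and 4.30% lower. Apart from Gclc, these calls are of AHR genes already given above, so they add no further result. For estrogen metabolic process, of 10 genes, Cyp1b1 was called higher and Pdgfra lower, beside the same shares. The Cyp1b1 call is again the one given above.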
